A study of Homo sapiens with 6 samples.

Results

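The genes described here are the amyloid precursor protein gene APP, its paralogs APLP1 and APLP2, and 6 genes of the secretases that cut their proteins: BACE1, ADAM10, PSEN2, NCSTN, APH1A and PSENEN. They were chosen by gene symbol, and all 9 are rows of a table of 19610 genes. Transcripts were counted by RNA sequencing in SH-SY5Y, an established human neuroblastoma line of wild-type genotype per the labels, which as a single line stands for 1 genetic background. One group was 3 libraries, lettered A to C, from cells treated with SGC707, which inhibits PRMT3, an enzyme that methylates arginines of proteins. The other group was 3 libraries, with the same letters, from cells given the solvent DMSO. The sources used here give neither dose nor duration. No source says that the libraries came from separate cultures, so each p-value rests on the spread among these 6 libraries, which may be technical. The study's stated question concerns the microRNA MIR448, the receptor gene IGF1R and phosphorylation of tau.

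APP is a membrane protein of neurons and many other cells. An α-secretase, of which ADAM10 is the main one in neurons, cuts it within the amyloid-β stretch and releases a large soluble fragment, while the β-secretase BACE1 cuts at the start of that stretch. The remaining membrane stub is cut inside the membrane by γ-secretase, a complex of a presenilin (the protease), nicastrin, an APH1 protein and the presenilin enhancer encoded by PSENEN. APLP1 and APLP2 are processed by the same enzymes but lack the amyloid-β stretch. RNA sequencing reads the transcripts only, so cleavage and amyloid-β are not measured here.

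Total counts were 11658728 to 12127187 in the SGC707 libraries and 11863696 to 15437602 in the DMSO libraries. Mitochondrially encoded transcripts took 24.3% to 37.7% of the counts with SGC707 and 46.7% to 60.7% with DMSO, which left 7559322 to 8999358 nuclear counts per library with SGC707 and 6066305 to 6327895 with DMSO. SGC707 C stood apart. For each gene, deviations were taken from its mean log2 CPM over the 6 libraries. Across genes, those of SGC707 C had a Spearman correlation of -0.77 with the GC content of the transcripts. The other 5 libraries ranged from -0.13 to 0.53. Log2 fold changes of the 9 genes that SGC707 C moved by over 1.5 times, or across the threshold, are given with and without it. Of 13 adrenergic neuroblastoma markers, 12 were tested and TH was at 0 in all 6 libraries; their summed level was 4823 to 5460 normalised CPM (counts scaled to library size with TMM factors) with SGC707 and 6045 to 7591 with DMSO, and 11 of the 12 had negative log2 fold changes, as did 47.2% of all tested genes. None of the 12 passed the test described below, and the list's median log2 fold change was -0.34. At an unadjusted p under 0.05, 3 of the 12 were lower with SGC707, as were 7.13% of all tested genes. For 6 of the 12, all SGC707 libraries lay below all DMSO libraries, as for 9.78% of all tested genes. Without SGC707 C the median was -0.33, and ELAVL4, STMN2, GATA3 and HAND1 passed as lower. That fit called 5.53% of all tested genes lower. Summed markers of Schwann cells and glia, of immune cells and of epithelium each stayed below 3 normalised CPM in every library, with SOX10, GFAP, PTPRC, CD3E, AIF1 and KRT5 at 0. Fibroblast markers summed to 11.1 to 16.8 normalised CPM with SGC707 and 12.7 to 14.3 with DMSO. In bulk RNA, fewer cells of a type and less RNA per cell cannot be told apart.

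None of the 9 genes passed the test between SGC707 and DMSO. Of 12196 tested genes, 1 (0.0082%) was higher and 2 (0.0164%) were lower at an adjusted p under 0.05 in edgeR's quasi-likelihood test, adjusted by Benjamini-Hochberg over all tested genes, and 0 of the 9 were among them. DESeq2 and limma-voom also called 0 of the 9. At an unadjusted p under 0.05 edgeR had PSEN2 higher and NCSTN lower, 1 of 9 in each direction, where 5.62% of all tested genes were higher and 7.13% lower; limma-voom had 2 and DESeq2 3 of the 9 at that level. The same pair were the only members whose groups did not overlap: PSEN2 lay above DMSO in all 3 SGC707 libraries, as did 10.8% of tested genes, and NCSTN below, as did 9.78%. The median log2 fold change of the 9 was 0.12, beside 0.02 for all tested genes. Without SGC707 C, edgeR called PSEN2 and APH1A higher and NCSTN lower, in a fit that called 3.73% of all tested genes higher and 5.53% lower. With library totals alone 5 of the 9 were called higher and 0 lower, beside 21.1% and 0.254% of all tested genes.

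**Figure D1:**
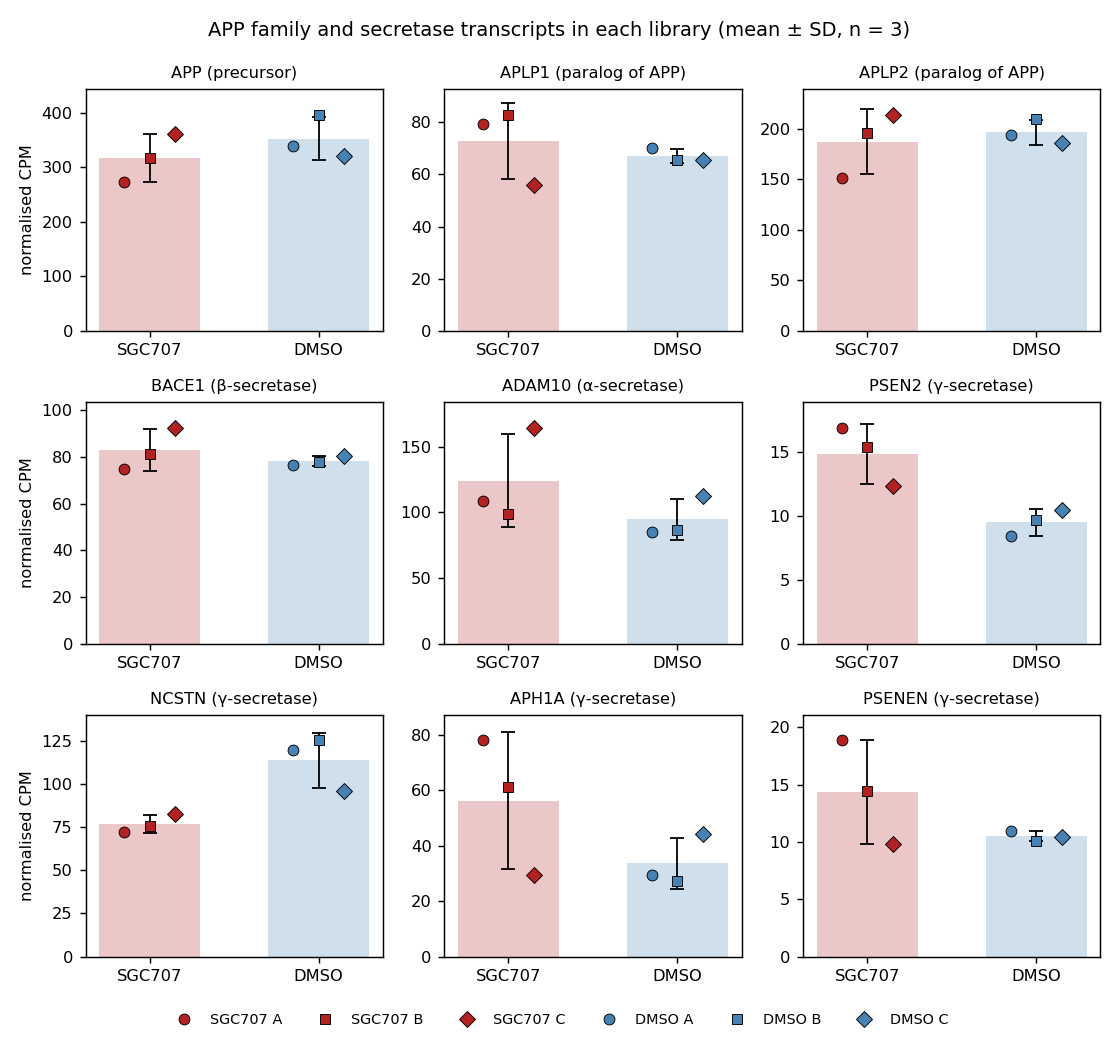
Normalised CPM (read counts scaled to library size with TMM factors) of the 9 genes in each library, SGC707 on the left and DMSO on the right of each panel; bars are means, whiskers are the SD (n = 3) and the marker shape gives the library letter. PSEN2 is above and NCSTN below the DMSO libraries in all 3 SGC707 libraries, while APLP1, APH1A and PSENEN are above in SGC707 A and B only.

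APP lies on GRCh38 chromosome 21, 25880550 to 26171128, on the minus strand. It had 4523, 5054 and 4640 counts in SGC707 libraries A, B and C and 3556, 4058 and 3569 in DMSO libraries A, B and C. After scaling these were 273.3, 317.8 and 361.6 normalised CPM with SGC707 and 339.2, 396.7 and 321.3 with DMSO. The groups overlapped, with SGC707 A lowest and DMSO B highest. The log2 fold change was -0.15 (SE 0.16, 95% interval -0.52 to 0.22, edgeR adjusted p = 0.726). It was -0.26 without SGC707 C (edgeR adjusted p = 0.220), -0.050 without SGC707 A and -0.059 without DMSO B. With library totals alone as the scaling it was 0.52, where the median of all tested genes was 0.69. The 95% interval of the SGC707 to DMSO ratio ran from 0.699 to 1.16.

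APLP2 (chromosome 11, 130068147 to 130144811, plus strand) is the paralog found in most tissues. It had 151.1, 195.7 and 213.7 normalised CPM in SGC707 libraries A, B and C and 193.4, 209.9 and 185.8 in DMSO libraries A, B and C. SGC707 A was again the lowest library, and the groups overlapped. Its log2 fold change was -0.07 (95% interval -0.45 to 0.30, edgeR adjusted p = 0.889), -0.18 without SGC707 C, 0.062 without SGC707 A and 0.59 with library totals alone. APLP1 (chromosome 19, 35867899 to 35879791, plus strand), the paralog largely restricted to neurons, had 79.3, 82.9 and 56.1 normalised CPM in SGC707 libraries A, B and C and 70.1, 65.4 and 65.5 in DMSO libraries A, B and C. SGC707 A and B were above and SGC707 C below every DMSO library. Its log2 fold change was 0.12 (95% interval -0.29 to 0.53, edgeR adjusted p = 0.814) and 0.27 without SGC707 C (edgeR adjusted p = 0.113), with adjusted p-values from 0.0562 to 0.987 over the alternatives.

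Within each library the makeup of the family does not depend on scaling. The shares were not corrected for GC content, which was 48.7% for APP, 49.1% for APLP2 and 63.2% for APLP1. APP made up 51.7%, 51.2% and 56.2% of the summed counts per kb of transcript of APP, APLP1 and APLP2 in SGC707 libraries A, B and C, and 54.5%, 57.6% and 54.4% in DMSO libraries A, B and C. The means were 53.0% ± 2.75 with SGC707 and 55.5% ± 1.82 with DMSO (SD, n = 3, two-sided exact permutation p = 0.3, where 3 against 3 cannot go below 0.1). The shares of the groups overlapped, and the difference of -2.52 percentage points was -4.11 without SGC707 C and -1.47 without DMSO B. APLP2 held 29.4% ± 2.22 with SGC707 and 29.4% ± 0.473 with DMSO, and APLP1 held 17.5% ± 4.62 with SGC707 and 15.1% ± 1.38 with DMSO (SD, n = 3). Among the SGC707 libraries the share of APLP1 spread most.

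BACE1 (chromosome 11, 117285207 to 117316259, minus strand) encodes the β-secretase. It had 74.9, 81.3 and 92.6 normalised CPM in SGC707 libraries A, B and C and 76.5, 77.7 and 80.6 in DMSO libraries A, B and C. The 3 DMSO libraries lay inside the range of the SGC707 libraries. The log2 fold change was 0.08 (95% interval -0.24 to 0.41, edgeR adjusted p = 0.846), and -0.0074 without SGC707 C. BACE1 overlaps the genes CEP164, RNF214 and BACE1-AS on the opposite strand, and its counts may hold reads of those genes, since the sources used here do not say whether counting used strand.

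ADAM10 (chromosome 15, 58588807 to 58749978, minus strand), which encodes the α-secretase, overlaps AC018904.1 on the opposite strand and HSP90AB4P and RN7SKP95 on its own. It had 108.6, 98.9 and 164.5 normalised CPM in SGC707 libraries A, B and C and 85.1, 86.4 and 112.8 in DMSO libraries A, B and C. DMSO C lay above SGC707 A and B, and SGC707 C was the highest library. The log2 fold change was 0.39 (SE 0.23, 95% interval -0.13 to 0.91, edgeR adjusted p = 0.510), 0.13 without SGC707 C (edgeR adjusted p = 0.605) and 0.53 without SGC707 B or DMSO C, with adjusted p-values from 0.0435 to 0.917 over the alternatives.

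The count of BACE1 relative to ADAM10 sets the β- against the α-secretase transcript inside a library. It was not corrected for GC content, which was 49.3% for BACE1 and 38.3% for ADAM10. The ratio was 0.689, 0.823 and 0.563 in SGC707 libraries A, B and C and 0.899, 0.899 and 0.714 in DMSO libraries A, B and C. SGC707 B lay above DMSO C, so the groups overlapped. On the log2 scale the mean was -0.55 ± 0.27 with SGC707 and -0.26 ± 0.19 with DMSO (SD, n = 3), a difference of -0.29 (two-sided exact permutation p = 0.2). Without SGC707 C the difference was -0.15 (two-sided exact permutation p = 0.4, where the test with a library left out cannot go below 0.2).

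Because the study asks about MIR448, the 3′ UTRs were searched for its seed match. The mature sequence of miR-448 (RefSeq, GRCh38.p14 chromosome X, 114823524 to 114823545, plus strand) is shown with the seed, bases 2 to 8, in capitals, followed by each match in the 9 genes with 10 bases on either side and the match in capitals.
miR-448: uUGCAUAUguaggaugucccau
APLP2, 3′ UTR base 362: taatagacttATATGCAggctgtcgtt
ADAM10, 3′ UTR base 450: ataccttgttATATGCAgacatgtatt
ADAM10, 3′ UTR base 4450: caaaaacataATATGCAcacttttgta
ADAM10, 3′ UTR base 4827: aaatccacatATATGCAgccacatgaa
ADAM10, 3′ UTR base 7074: gcatttgctgATATGCAttgaccagtt
ADAM10, 3′ UTR base 8584: tcaaaatctaATATGCActgtatttat

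The letters searched were ATATGCA and TATGCAA, which overlap each other, on the transcript strand of the longest protein-coding transcript in GENCODE 29. ADAM10 held 5 matches in a 3′ UTR of 8740 bases and APLP2 held 1 in 1356 bases. The APLP2 window lies at chromosome 11, 130143800 to 130143826, and the ADAM10 windows run from chromosome 15, 58588947 to 58588973, up to 58597081 to 58597107. The other 7 genes held no match in these windows. Of 12027 tested genes with a 3′ UTR, 20.9% held at least 1 match and 16 genes held 5 or more. The 2519 genes with a match had a median log2 fold change of 0.03 and the 9508 without one 0.02. The median 3′ UTR was 3066 bases long with a match and 1062 without. A match is a description of the letters, not a bound site, and miR-448 itself was not analysed here.

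The 4 γ-secretase genes had log2 fold changes of both signs. PSEN2 (chromosome 1, 226870184 to 226896105, plus strand) encodes presenilin 2, a protease subunit. It had 280, 245 and 158 counts in SGC707 libraries A, B and C and 88, 99 and 116 in DMSO libraries A, B and C, or 16.9, 15.4 and 12.3 normalised CPM with SGC707 and 8.39, 9.68 and 10.4 with DMSO. All 3 SGC707 libraries lay above all 3 DMSO libraries, with SGC707 C closest to them. Its level was 1.57 times that of DMSO in the fit, a log2 fold change of 0.65 (SE 0.21, 95% interval 0.16 to 1.13, unadjusted p = 0.0154, edgeR adjusted p = 0.291). Without SGC707 C it was 0.76 (edgeR adjusted p = 0.0386). Over the 16 alternatives the value ran from 0.55 to 1.33 and the adjusted p from 0.0386 to 0.857.

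NCSTN (chromosome 1, 160343272 to 160358952, plus strand) encodes nicastrin, the large glycoprotein of the complex that takes part in substrate binding. It had 72.3, 75.8 and 82.8 normalised CPM in SGC707 libraries A, B and C and 120.1, 125.3 and 95.8 in DMSO libraries A, B and C. All 3 SGC707 libraries lay below all 3 DMSO libraries, with DMSO C closest to them. Its raw counts were close in the groups, 1063 to 1206 with SGC707 and 1064 to 1282 with DMSO, so its direction rests on the scaling. The log2 fold change was -0.56 (SE 0.16, 95% interval -0.92 to -0.20, unadjusted p = 0.00689, edgeR adjusted p = 0.262), and 0.12 with library totals alone, where the median of all tested genes was 0.69. Leaving out the mitochondrial genes and scaling by nuclear totals alone, an alternative chosen after seeing the data, gave -0.51 (edgeR adjusted p = 0.264). Without SGC707 C it was -0.62 (edgeR adjusted p = 0.0371), and over the 16 alternatives the adjusted p ran from 0.0371 to 0.857. The first bases of NCSTN, up to 160343400, overlap the start of COPA on the opposite strand; COPA stood at 245.4 ± 12.6 normalised CPM with SGC707 and 226.5 ± 13.6 with DMSO (SD, n = 3, log2 fold change 0.12, edgeR adjusted p = 0.736). The adrenergic markers summed to 4823 to 5460 normalised CPM with SGC707 and 6045 to 7591 with DMSO, with 0 of 12 past the test, and their part in the NCSTN value was not tested.

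APH1A (chromosome 1, 150265399 to 150269580, minus strand) encodes the APH1 scaffold subunit. It had 1290, 974 and 379 counts in SGC707 libraries A, B and C and 308, 279 and 492 in DMSO libraries A, B and C. After scaling these were 77.9, 61.3 and 29.5 normalised CPM with SGC707 and 29.4, 27.3 and 44.3 with DMSO. SGC707 A and B lay above every DMSO library and SGC707 C lay among them. The log2 fold change was 0.74 (SE 0.36, 95% interval -0.08 to 1.56, edgeR adjusted p = 0.439). Leaving out a library moved it to 1.04 without SGC707 C (edgeR adjusted p = 0.0444), 0.99 without DMSO C (edgeR adjusted p = 0.359) and 0.43 without SGC707 A (edgeR adjusted p = 0.669), and over all alternatives the adjusted p ran from 0.0444 to 0.911. C1orf54 overlaps APH1A on the opposite strand and had 1 count in SGC707 B, 2 in DMSO B and 0 in the other 4 libraries.

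PSENEN (chromosome 19, 35745114 to 35747519, plus strand) encodes the smallest subunit, needed for the presenilin to mature. It had 312, 229 and 126 counts in SGC707 libraries A, B and C and 115, 103 and 116 in DMSO libraries A, B and C. Scaled, these were 18.9, 14.4 and 9.82 normalised CPM with SGC707 and 11.0, 10.1 and 10.4 with DMSO. As for APH1A, SGC707 A and B were above every DMSO library, and here SGC707 C was below them. The log2 fold change was 0.45 (SE 0.26, 95% interval -0.15 to 1.06, edgeR adjusted p = 0.506), 0.66 without SGC707 C (edgeR adjusted p = 0.0558) and 0.21 without SGC707 A, with adjusted p-values from 0.0513 to 0.915 over the alternatives. Its start overlaps U2AF1L4 on the opposite strand, which stood at 3.19 ± 0.670 normalised CPM with SGC707 and 5.64 ± 0.499 with DMSO (SD, n = 3, log2 fold change -0.82, edgeR adjusted p = 0.293). AD000671.1 overlaps it on the same strand, so that no strand setting could part their shared reads; it had 20, 21 and 0 counts in SGC707 libraries A, B and C and 0, 24 and 18 in DMSO libraries A, B and C.

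**Figure D2:**
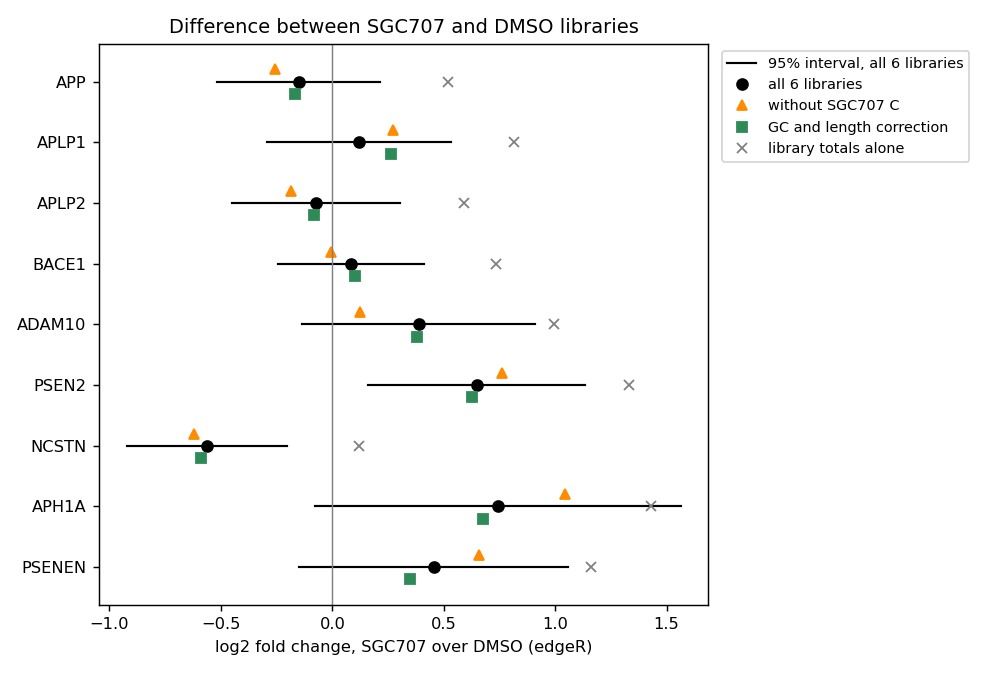
Log2 fold change of SGC707 over DMSO for the 9 genes: black points and lines are the edgeR values and 95% intervals on all 6 libraries, triangles the values without SGC707 C, squares those after a correction for GC content and transcript length, and crosses those with library totals alone. The intervals of PSEN2 (0.16 to 1.13) and NCSTN (-0.92 to -0.20) do not include 0, and every cross lies to the right of its point.

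PSEN2 and NCSTN, the pair whose groups did not overlap, are shown by the 250 bases before their RefSeq start (GRCh38.p14, plus strand), at chr1:226870366-226870615 and chr1:160343133-160343382. These starts lie 432 bases for PSEN2 and 111 bases for NCSTN after the GENCODE 29 starts given above, so the PSEN2 window and the end of the NCSTN window are inside the genes as GENCODE draws them. Capitals mark the GC box GGGCGG, searched on both strands.
PSEN2: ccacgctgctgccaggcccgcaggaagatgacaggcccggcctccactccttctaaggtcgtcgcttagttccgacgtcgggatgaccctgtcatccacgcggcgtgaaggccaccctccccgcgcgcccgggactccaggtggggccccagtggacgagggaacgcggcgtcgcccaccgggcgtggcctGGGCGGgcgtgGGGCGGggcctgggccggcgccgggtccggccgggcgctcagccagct
NCSTN: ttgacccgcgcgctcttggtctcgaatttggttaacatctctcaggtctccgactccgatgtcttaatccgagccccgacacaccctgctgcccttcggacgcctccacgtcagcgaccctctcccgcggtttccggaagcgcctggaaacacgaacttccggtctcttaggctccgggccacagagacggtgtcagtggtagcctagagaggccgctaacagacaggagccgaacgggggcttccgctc

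The PSEN2 window held 2 GC boxes and 75.2% G and C, and the NCSTN window held none and 61.6%. Over 35116 RefSeq promoter windows of the same length, 42.6% held a GC box and the median was 58.0% G and C. Neither window held CCAAT or TATAAA on either strand, which 32.0% and 10.7% of all windows did.

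The makeup of the γ-secretase transcripts differed more between libraries than that of the APP family. Of the summed CPM per kb of the 4 genes, NCSTN took 32.4%, 38.7% and 54.6% in SGC707 libraries A, B and C and 64.5%, 66.4% and 52.6% in DMSO libraries A, B and C. APH1A took 43.6%, 39.0% and 24.3% with SGC707 and 19.7%, 18.0% and 30.4% with DMSO. SGC707 C lay among the DMSO libraries in both shares. PSEN2 took 9.03%, 9.36% and 9.67% with SGC707 and 5.37%, 6.11% and 6.84% with DMSO. PSENEN took 14.9%, 13.0% and 11.4% with SGC707 and 10.4%, 9.43% and 10.1% with DMSO. For PSEN2 and for PSENEN the shares of the groups did not overlap. How often such shares part the groups over all genes was not computed. The sum of the 4 genes averaged 64.8 ± 12.3 CPM per kb with SGC707 and 63.2 ± 1.16 with DMSO (SD, n = 3). The count of PSEN2 relative to NCSTN, which needs no scaling, was 0.234, 0.203 and 0.149 in SGC707 libraries A, B and C and 0.0699, 0.0772 and 0.109 in DMSO libraries A, B and C. PSENEN relative to NCSTN was 0.261, 0.190 and 0.119 in SGC707 libraries A, B and C and 0.0913, 0.0803 and 0.109 in DMSO libraries A, B and C. Neither of these 2 ratios overlapped between the groups. For PSEN2 to NCSTN that was fixed in advance, since after scaling PSEN2 was above and NCSTN below DMSO in every SGC707 library. PSENEN to NCSTN shares that denominator, and the frequency of such separation over all gene pairs was not computed. APH1A relative to NCSTN was 1.08, 0.808 and 0.357 with SGC707 and 0.245, 0.218 and 0.462 with DMSO, with overlap. These ratios were chosen after the values were seen, were not corrected for GC content and are given without a test.

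**Figure D3:**
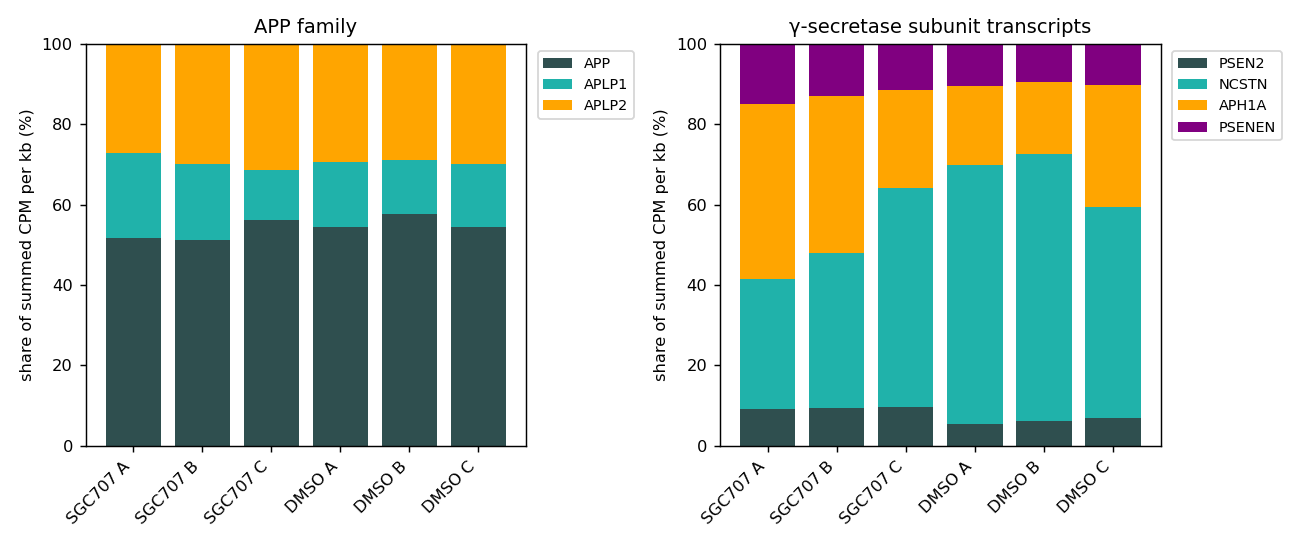
Share of each gene in the summed CPM per kb of transcript, in percent, for APP, APLP1 and APLP2 (left) and for the 4 γ-secretase genes (right), with 1 stacked bar per library, SGC707 before DMSO. APP keeps 51.2% to 57.6% in all libraries, while NCSTN ranges from 32.4% in SGC707 A to 66.4% in DMSO B.

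In the 9 transcripts, the sign of the difference of SGC707 C from SGC707 A and B went with GC content. Among the 4 above 51% G and C its size did not follow GC content, and the link was not tested. ADAM10, with 38.3% G and C in its longest protein-coding transcript, was 0.67 higher on the log2 scale in SGC707 C than the mean of SGC707 A and B. APP, APLP2, BACE1 and NCSTN, at 48.7% to 50.8%, were 0.16 to 0.31 higher in SGC707 C. PSENEN at 51.6%, PSEN2 at 54.9%, APH1A at 55.9% and APLP1 at 63.2% were lower there, with differences of -0.75, -0.39, -1.23 and -0.53 in log2 units. A correction of each library for GC content and length moved APLP1 to 0.27 (edgeR adjusted p = 0.391), against 0.12 without it. It gave 0.38 for ADAM10, 0.68 for APH1A, 0.35 for PSENEN, 0.63 for PSEN2 and -0.59 for NCSTN, with edgeR adjusted p from 0.0687 for NCSTN to 0.330 for PSENEN. The PSEN2 and NCSTN values were thus close to those without the correction, 0.65 and -0.56. The Spearman correlations with GC content over all genes were 0.53 in SGC707 A, 0.34 in SGC707 B and -0.77 in SGC707 C. The deviations behind them are from each gene's mean over all libraries, so a trend in SGC707 C pushes the others the opposite way. The opposite signs are therefore not independent of each other.

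**Figure D4:**
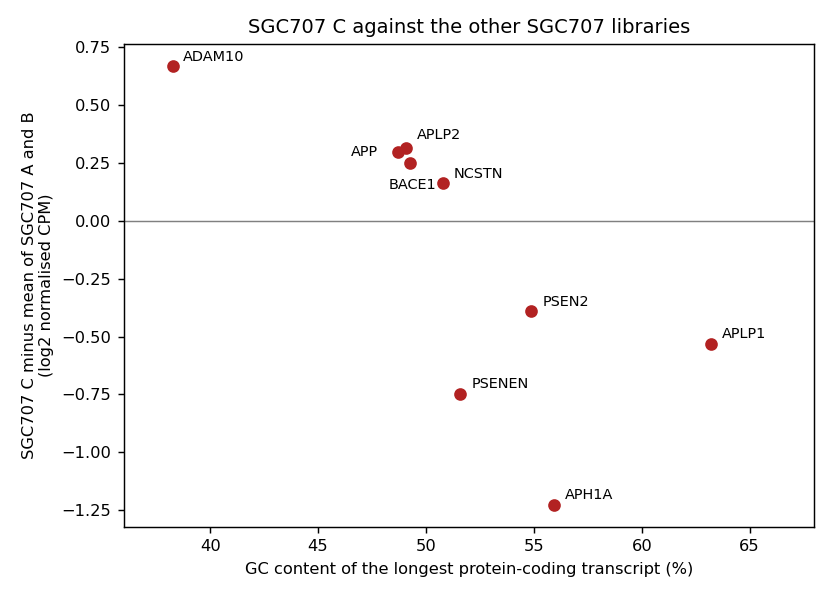
Log2 normalised CPM of each gene in SGC707 C minus the mean of SGC707 A and B, against the GC content (%) of its longest protein-coding transcript. ADAM10 with 38.3% lies highest at 0.67, and the 4 genes above 51% lie below 0.

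Levels of different genes were compared per kb of the longest protein-coding transcript. Which transcripts these cells use was not tested, and the order depends on that choice. By group means BACE1 (6326 bases) comes before ADAM10 (11431 bases), though ADAM10 had more counts in every library. With SGC707 the order was APP at 89.6 ± 12.5 CPM per kb, APLP2 at 49.9 ± 8.61, APLP1 at 29.2 ± 5.82, NCSTN at 26.2 ± 1.82, APH1A at 23.9 ± 10.5, BACE1 at 13.1 ± 1.42, ADAM10 at 10.8 ± 3.10, PSENEN at 8.64 ± 2.72 and PSEN2 at 6.04 ± 0.952 (SD, n = 3). Only APP and APLP2 stood clear of the next gene there; every later neighbour overlapped over the 3 libraries. With DMSO the order was APP at 99.5 ± 11.1, APLP2 at 52.5 ± 3.29, NCSTN at 38.7 ± 5.37, APLP1 at 26.8 ± 1.08, APH1A at 14.3 ± 3.94, BACE1 at 12.4 ± 0.331, ADAM10 at 8.29 ± 1.37, PSENEN at 6.32 ± 0.272 and PSEN2 at 3.86 ± 0.420 CPM per kb (SD, n = 3). There the only neighbours that overlapped were APH1A and BACE1. APP exceeded 98.0% of the tested genes with SGC707 and 98.2% with DMSO, whereas PSEN2 exceeded 48.4% with SGC707 and 35.3% with DMSO.

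The pattern of APP over the 6 libraries was nearest to those of GAREM1, BUB1, NCAPH, TLE4 and TAF12, at a root mean square difference of 0.04 to 0.05 in centred log2 normalised CPM, over 6443 genes with a mean of at least 20 normalised CPM. The median difference was 0.28. APLP2 was in place 21 of these genes at 0.07, and BACE1 in place 926 at 0.16. NCSTN (place 2260), APLP1 (place 3961), ADAM10 (place 4490) and APH1A (place 6228) were farther from APP.

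Other genes that act on APP and its relatives were described from 6 lists. None of their 98 tested members passed the edgeR test over all genes in either direction. Among secretases and secretase modulators, 22 of 23 genes were tested and BACE2 was not, with a median log2 fold change of -4.5e-04. The cargo receptor gene TMED2, of a family that modulates γ-secretase, had an unadjusted p under 0.05, at 106.7 ± 22.2 normalised CPM with SGC707 and 162.2 ± 20.3 with DMSO (SD, n = 3, log2 fold change -0.61, edgeR adjusted p = 0.278), and it passed without SGC707 C. TSPAN5, a tetraspanin that escorts ADAM10, had 31.0 ± 1.52 with SGC707 and 24.4 ± 2.80 normalised CPM with DMSO (SD, n = 3, log2 fold change 0.34, edgeR adjusted p = 0.437). The metalloprotease gene ADAM19 stood at 0.55 and ITM2B, an inhibitor of APP processing, at -0.22 on the log2 fold change scale.

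Among genes of APP sorting and endocytosis, 23 of 25 were tested (median log2 fold change 0.0037) and 1 had an unadjusted p under 0.05. This was VPS29, a subunit of retromer, the coat that returns cargo from endosomes, at 31.9 ± 3.35 normalised CPM with SGC707 and 22.0 ± 3.97 with DMSO (SD, n = 3, log2 fold change 0.53, edgeR adjusted p = 0.317). The lipoprotein receptor gene LRP8 (-0.45) and the adaptor genes GGA1 (-0.70) and GGA2 (0.35) came next by p, with edgeR adjusted p from 0.404 to 0.440. Among adaptors of the APP tail, 16 of 17 were tested (median 0.15). NUMB, an endocytic adaptor, had 53.3 ± 7.20 normalised CPM with SGC707 and 81.1 ± 20.2 with DMSO (SD, n = 3, log2 fold change -0.60, edgeR adjusted p = 0.308). APPBP2, which binds the APP tail, had 86.2 ± 11.4 normalised CPM with SGC707 and 58.0 ± 13.0 with DMSO (SD, n = 3, log2 fold change 0.57, edgeR adjusted p = 0.311), and APBA1 (-0.30) and APBB3 (0.60) were at edgeR adjusted p = 0.479 and 0.542.

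Among other proteins cut by BACE1 or γ-secretase, 24 of 28 genes were tested (median -0.15). SEZ6, a substrate of BACE1, had 16.1 ± 3.74 normalised CPM with SGC707 and 28.3 ± 4.48 with DMSO (SD, n = 3, log2 fold change -0.81, edgeR adjusted p = 0.266), and its relative SEZ6L stood at -0.83 (edgeR adjusted p = 0.418). NOTCH4 (0.86) and the neurotrophin receptor gene NGFR (-0.60) followed, with edgeR adjusted p = 0.450 and 0.467. The Notch target genes, which read the release of the Notch tail by γ-secretase, were tested in 5 of 8 cases, with a median of -0.10. DTX1 (-0.25), NRARP (-0.17), HEY1 (-0.10) and HES4 (0.41) had an edgeR adjusted p of 0.718 or more. HES4 was near the floor, with 65, 47 and 1 counts in SGC707 libraries A, B and C and 10, 27 and 19 in DMSO libraries A, B and C. Its 95% interval ran from -1.62 to 2.45. Among genes of amyloid-β degradation and binding, 8 of 11 were tested (median -0.26). CTSD, the lysosomal protease cathepsin D, had 37.4 ± 17.0 normalised CPM with SGC707 and 63.6 ± 4.16 with DMSO (SD, n = 3, log2 fold change -0.76, edgeR adjusted p = 0.356). The other named genes were ECE2 (0.90), PITRM1 (-0.27) and ECE1 (-0.24), with edgeR adjusted p-values of 0.416, 0.545 and 0.582. Without SGC707 C, 4 of the 98 tested genes of these lists passed, in a fit that called 3.73% of all tested genes higher and 5.53% lower. They included TMED2, which was lower, and SNX17 and APBB3, which were higher. SNX17 is named because it passed there.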

How the data were processed

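RNA of 6 SH-SY5Y libraries (3 SGC707, 3 DMSO) was sequenced as paired reads from mRNA libraries, per the labels' protocols. The authors deposited whole-number read counts per gene symbol, unscaled. HISAT2, StringTie and the build GRCh38 are named per the submitters' processing notes, without role or settings; the sources used here give no annotation, strand setting or treatment of shared reads. Reads of paralogs and overlapping genes can therefore shift single counts.

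Counts were analysed in R 4.3.3 with edgeR 4.0.16 (filterByExpr, TMM, robust glmQLFit, glmQLFTest, no covariate), adjusted over 12196 genes; the code was tested on simulated data. Standard errors come from the F statistic, and normalised CPM uses the TMM factors. By counting error alone, 0 counts leave room for 3, which is 0.181 to 0.293 normalised CPM. Library pairs of a group differed beyond sampling noise (chi-square per degree of freedom 11.9 or more), so none was counted as a repeat deposit of another; this does not show separate cultures. GENCODE 29 (GRCh38) gave positions, lengths and GC content: 19294 symbols matched directly, 296 by synonym and 20 not at all.

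The pathway genes named are the 4 with the smallest p in each list, and the 5 genes most like APP are by distance. The members and lists were chosen with earlier results of these data known. One list gene is counted but not reported here by name. Alternatives were DESeq2 1.42.0, limma-voom (limma 3.58.1), other scalings and filters, a lowess correction (span 0.3), a threshold of 0.01, the library letter as a replicate block and each library left out; scaling by nuclear totals alone was added after seeing the data. Permutation tests used scipy 1.17.1.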

Additional observations from a re-analysis of the deposited data

How the results depend on the processing

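Of 144 values of the 9 genes under alternatives, 132 kept their direction and their side of the threshold, 8 passed it and 5 changed sign, with APLP2 under library totals alone in both counts (edgeR adjusted p = 0.0493). The 5 were APP (0.52), APLP2 (0.59) and NCSTN (0.12) with library totals alone, APLP2 without SGC707 A and BACE1 without SGC707 C. Leaving out 1 library moved APLP2 from -0.18 to 0.062 and BACE1 from -0.0074 to 0.15. Library totals alone called 5 of the 9 genes higher and 0 lower, beside 21.1% of all tested genes higher and 0.254% lower, with a median of 0.69 over all tested genes. Leaving out 1 library gave 0 to 2 of the 9 genes higher and 0 to 1 lower, with the calls made without SGC707 C.

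Over all genes, the number higher and lower was 2574 and 31 with library totals alone, 47 and 241 with DESeq2, 9 and 54 after the GC and length correction, 0 and 0 with the replicate block (1534 genes at an unadjusted p under 0.05) and 0 and 0 at a threshold of 0.01. It was 0 higher with limma-voom, 5 lower with no filter, and 0 to 462 higher and 0 to 685 lower with 1 library left out, both highest without SGC707 C. The replicate block called 0 of the 9 genes, with PSEN2 at 0.64 and NCSTN at -0.56. Same-lettered libraries had correlations of 0.08, -0.02 and 0.10 (A, B and C) between their deviations from the group means. SGC707 A and C correlated best with the DMSO library of their own letter, but SGC707 B did so with DMSO A, at 0.10. With these low and mixed values the letters were not taken to pair the libraries. The BACE1 to ADAM10 ratio and the APP share kept their direction with each library left out, at differences of -0.42 to -0.15 in log2 units and of -4.11 to -1.47 percentage points. PSEN2 and PSENEN, with as few as 88 and 103 counts in a library, are the least precise of the 9 by counting error; the causes of these changes were not tested.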
